A study of Mus musculus with 4 samples.

Results

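Gata4, Mecom, Erg, Ets1, Sox17, Sox18, Maf and Meis1 are transcription factors used by endothelial cells, the cells that line blood vessels. These 8 genes were chosen by symbol and make up 8 of the 32285 genes counted in this single-nucleus RNA-seq study of mouse liver. Their transcripts were summed per library in endothelial nuclei named from other genes: a sinusoidal type (marked by Stab2 and Ptprb), a vessel type (Vwf and Adgrg6) and a vein type (Rspo3 and Wnt9b). All livers came from male mice that were 10 to 11 weeks old when a DDC diet began and were fed it for 4 weeks; DDC is a porphyrin-raising compound that injures bile ducts. The WT group was wild type, and the CKO group lacked Rbpj, the DNA-binding factor of Notch signalling, in hepatic progenitor cells. Each group had 2 libraries, called WT replicate 1 and 2 and CKO replicate 1 and 2 below. No group on a normal diet was analysed here, so every value belongs to a DDC-fed liver. The labels name neither the Cre driver nor the origin of the replicates. P-values between genotypes thus measure the spread between these libraries, which may be technical. With 2 residual degrees of freedom in a fit, they also lean on a spread pooled over genes. P-values between endothelial types had the library as a block and rest on the remaining spread, pooled over genes.

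Endothelial cells are specified by factors of several DNA-binding families that act together. Erg and Ets1 are ETS factors, which bind a GGAA core and maintain genes of endothelial identity. Gata4, a zinc finger factor, and Maf, a leucine zipper factor, are known for driving the programme of liver sinusoids, the fenestrated capillaries that exchange material with hepatocytes. Mecom (also called Evi1) is a zinc finger factor with a PR domain isoform that is known for its role in blood stem cells and in the endothelium of arteries. Sox17 and Sox18 are SOX F factors of arterial and lymphatic development, and Meis1 is a homeodomain factor that acts as a cofactor of HOX proteins.

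In the GRCm38 annotation Mecom lies on chromosome 3 from 29951296 to 30548008 on the minus strand, and Meis1 on chromosome 11 from 18879817 to 19018985 on the minus strand. Gata4 lies on chromosome 14 from 63198922 to 63271692 and Maf on chromosome 8 from 115682942 to 115707794, both on the minus strand. Ets1 lies on chromosome 9 from 32636221 to 32757820 on the plus strand, and Erg on chromosome 16 from 95359169 to 95586593 on the minus strand. Sox17 lies on chromosome 1 from 4490931 to 4497354 and Sox18 on chromosome 2 from 181669836 to 181671640, both on the minus strand. Mecom, Ets1, Maf, Sox17 and Meis1 overlap genes annotated on the opposite strand, among them Mecomos, Gm27240, Gm15655, Gm37587 and Gm16140, and the strand setting of the counting is not given in the sources used here, so reads of such pairs may not be fully separated. RefSeq promoter sequences (build GRCm38.p6) were held for 3 of the 8 genes, namely Mecom, Meis1 and Erg. Those of Mecom and Meis1 are printed because these genes were the ones higher in the vessel type; each is the stretch of 250 bases before an annotated start, 5′ to 3′ on the gene's own strand.
Mecom, chr3:30509760-30510009, minus strand: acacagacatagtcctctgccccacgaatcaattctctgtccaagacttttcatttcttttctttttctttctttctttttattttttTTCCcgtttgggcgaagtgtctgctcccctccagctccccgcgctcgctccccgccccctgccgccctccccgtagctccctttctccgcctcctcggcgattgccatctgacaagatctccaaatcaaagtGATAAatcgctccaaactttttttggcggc
Mecom, another start, chr3:30013205-30013454, minus strand: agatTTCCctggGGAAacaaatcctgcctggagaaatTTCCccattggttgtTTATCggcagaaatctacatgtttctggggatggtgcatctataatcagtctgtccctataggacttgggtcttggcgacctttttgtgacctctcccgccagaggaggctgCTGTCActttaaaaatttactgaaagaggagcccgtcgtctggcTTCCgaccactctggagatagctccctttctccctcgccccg
Meis1, chr11:19018970-19019219, minus strand: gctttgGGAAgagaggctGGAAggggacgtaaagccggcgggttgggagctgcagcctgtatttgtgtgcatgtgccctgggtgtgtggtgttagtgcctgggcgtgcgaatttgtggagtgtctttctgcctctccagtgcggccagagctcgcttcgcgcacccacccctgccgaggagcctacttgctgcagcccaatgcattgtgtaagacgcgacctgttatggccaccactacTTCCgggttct
Capitals mark matches on either strand to GGAA (the ETS core), GATAA (GATA) or TGACAG (MEIS). The first Mecom stretch held 1 ETS core and 1 GATA match, the second held 4 ETS core, 1 GATA and 1 MEIS match, and the Meis1 stretch held 3 ETS core matches. Of 32851 promoter stretches of 250 bases, 93.4% held the ETS core, 22.6% the GATA letters and 15.9% the MEIS letters, so matches of this kind are common. A match is a description of the letters, not of binding.

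The libraries held 45620141 UMIs (unique transcript molecules) in 16000 barcodes for WT replicate 1, 13914845 in 6480 for WT replicate 2, 38003108 in 16000 for CKO replicate 1 and 12261329 in 5184 for CKO replicate 2. Replicate 2 of each group was thus shallower in total. Library pairs shared 0.367% to 1.14% of the barcodes of the smaller one. Between 39.0% and 62.6% of the nuclei kept in a library showed too few markers of a class over the level of free RNA and stayed unnamed. Free RNA in the droplets was estimated with these unnamed nuclei as its profile. By this estimate it gave 71.4% and 75.4% of endothelial UMIs in the WT libraries and 80.9% and 86.1% in the CKO libraries. Rbpj itself was read at 76.9 and 66.3 CPM (counts per 1e6 UMIs of the class sum) in WT cholangiocyte nuclei and at 69.7 and 43.1 CPM in CKO, the last from 4 UMIs. These reads come from the 3′ end of transcripts, and the deleted exons are not given in the sources used here, so the values check no label.

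Of 39017 nuclei kept, 2455 were endothelial, and they fell into 1833 sinusoid, 209 vessel, 107 vein and 211 intermediate nuclei, with 32 lymphatic and 46 cycling nuclei beside them. The 8 factors were left out of the genes used for clustering and naming; genes that vary with them were used. The naming markers separated the types in part. Rspo3 was read at 2108 CPM in the vein type against 14.5 CPM in vessel and 32.3 CPM in sinusoid nuclei, and Wnt9b at 164 CPM in the vein type against 0 UMIs in vessel nuclei. Adgrg6 was read at 543 CPM in the vessel type, 61.1 CPM in the vein type and 16.8 CPM in sinusoids. Vwf was shared by the vessel type at 636 CPM and the vein type at 554 CPM, over 12.3 CPM in sinusoids. Stab2, a scavenger receptor of sinusoids, was read at 2547 CPM there, 303 CPM in vessel and 172 CPM in vein nuclei, whereas Ptprb, a vascular phosphatase, was read in all 3 types, at 1471 CPM in sinusoid, 1320.1 CPM in vessel and 2230.4 CPM in vein nuclei, and so did not mark sinusoids alone. Stab2 also reached 1808 CPM in the nuclei named lymphatic. Intermediate nuclei carried both sinusoid and vessel markers, with Stab2 at 968 CPM and Adgrg6 at 136 CPM. The borders of the vessel type moved between clusterings: a vessel nucleus was called vessel in a mean of 29.8 of 50 clusterings, against 48.4 for sinusoid and 49.9 for vein nuclei. The vessel type held 120, 25, 60 and 4 nuclei and the vein type 49, 10, 44 and 4 in WT replicate 1, WT replicate 2, CKO replicate 1 and CKO replicate 2. Only sums of at least 20 nuclei entered the comparison of types, so vessel nuclei entered from 3 libraries and vein nuclei from WT replicate 1 and CKO replicate 1.

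Among all classes with at least 20 nuclei in a library, 6 of the 7 genes that could be ranked had their highest mean level in an endothelial type. Endothelium was split into several types and the other classes were not, which favours a top rank there. The genes were also chosen as endothelial factors, and the share over all genes was not counted. Mecom and Sox17 were highest in vessel nuclei, Erg in vein nuclei, and Gata4, Ets1 and Maf in intermediate nuclei. The intermediate means cover only the replicate 1 libraries; for Maf the sinusoid value was higher within WT replicate 1 (502 against 488 CPM), and sinusoids came first once free RNA was subtracted. Meis1 was highest outside the endothelium, in mesothelial nuclei of the liver surface. The ranges of neighbouring classes overlapped for most genes. The order was separated for Mecom, whose vessel, intermediate, vein and sinusoid ranges followed each other without overlap in the sums of at least 20 nuclei. For Gata4 the intermediate, vein, sinusoid, vessel and mesenchymal ranges each overlapped the next one. Transcripts were not restricted to endothelium. Ets1 was read in mesenchymal nuclei (stellate cells and fibroblasts) at 304, 283, 350.3 and 336 CPM in WT replicate 1 and 2 and CKO replicate 1 and 2. It was also read in T and NK lymphocyte nuclei at 298 CPM in WT replicate 1 and 274 CPM in CKO replicate 1, the libraries with at least 20 of those nuclei. Maf was read in macrophages at 328, 249, 202 and 165 CPM in the same order of libraries, and free RNA could account for 35.7% of those UMIs. Gata4 reached 247, 136, 223 and 136 CPM in mesenchymal nuclei, and Meis1 reached 319 CPM in the mesothelial nuclei of WT replicate 1 and 385 CPM in those of CKO replicate 2. By contrast, free RNA could account for 98.0% of the Gata4 UMIs and 92.1% of the Erg UMIs in macrophages, which is a background level, and for 85.1% of the Mecom UMIs in hepatocytes.

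**Figure D1:**
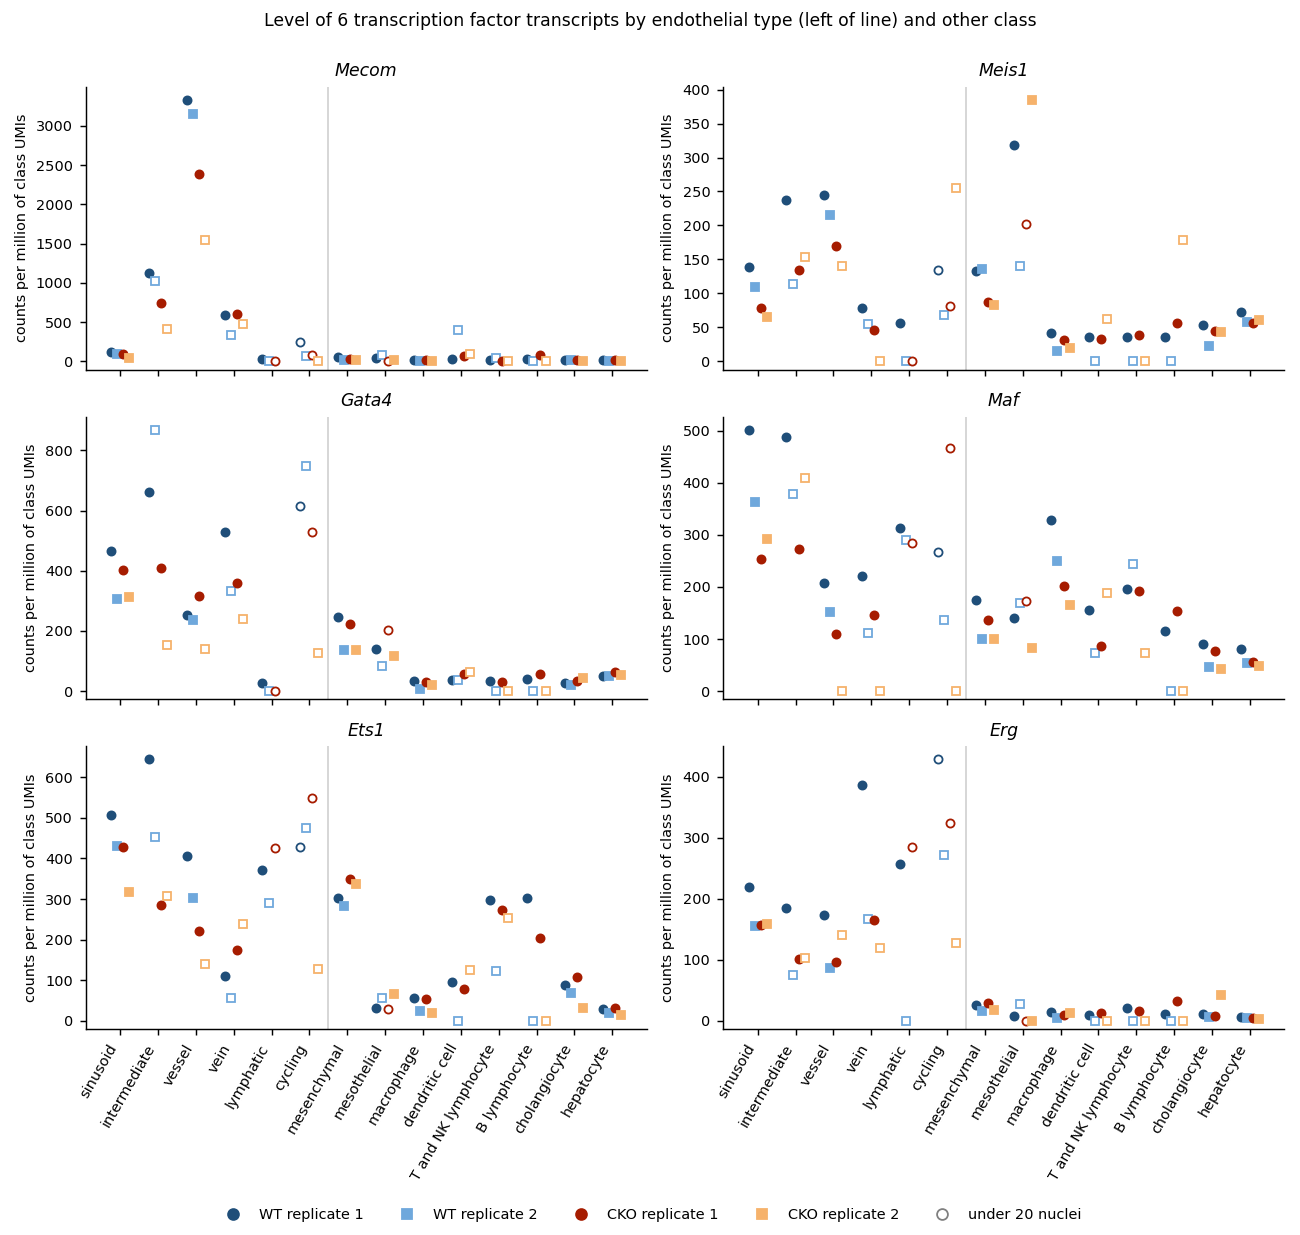
Level of 6 transcription factors in CPM of each class sum (vertical axes) in endothelial types and other liver classes (horizontal axis); each point is a library, and open points are sums of under 20 nuclei. Mecom stands at 2380.4 to 3329 CPM in vessel nuclei of the libraries with filled points, Gata4 and Ets1 spread over endothelial and mesenchymal nuclei, and Meis1 reaches 385 CPM in mesothelial nuclei.

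The comparison of types asked in which part of the liver vasculature each factor was transcribed most. Mecom and Meis1 were higher in vessel than in sinusoid nuclei, and Gata4, Maf and Ets1 were lower. Of the 8 genes, 6 had enough counts to be tested, and edgeR's quasi-likelihood test called 5 of them at a Benjamini-Hochberg adjusted p of 0.05, 2 higher and 3 lower. Of all 4976 genes tested, 428 or 8.6% were called, 4.1% as higher and 4.5% as lower. Each of the 6 tested genes, the uncalled Erg included, kept its direction in 3 of 3 libraries. How many of all genes did so was not counted. These p-values rest on the spread pooled over all genes, since the fit had 3 residual degrees of freedom.

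Mecom had the largest difference of the 6 tested. It was read in vessel nuclei at 3329 CPM (977 UMIs) in WT replicate 1, 3155 CPM (146 UMIs) in WT replicate 2, 2380.4 CPM (323 UMIs) in CKO replicate 1 and 1543 CPM (11 UMIs) in the 4 vessel nuclei of CKO replicate 2. In sinusoid nuclei it was read at 122, 88.1, 90.4 and 46.5 CPM in the same order. Every vessel value lay above every sinusoid value, with no overlap. The fitted difference was 27.2-fold (log2 4.76 ± 0.13 SE, edgeR adjusted p = 2.11e-273). Vein nuclei lay between both types, at 592 CPM in WT replicate 1 and 607 CPM in CKO replicate 1, with 333 CPM and 476 CPM in the libraries with 10 and 4 vein nuclei. Mecom was 5.48-fold higher in vein than in sinusoid nuclei (log2 2.45 ± 0.19 SE, edgeR adjusted p = 4.02e-36) and 4.96-fold lower in vein than in vessel nuclei (log2 -2.31 ± 0.16 SE, edgeR adjusted p = 8.60e-44). Intermediate nuclei were read at 1128 CPM in WT replicate 1 and 746 CPM in CKO replicate 1, between vessel and vein. Free RNA could account for 0.782% of the Mecom UMIs in vessel nuclei, 3.88% in vein nuclei and 23.0% in sinusoid nuclei. These 3 differences kept their direction and their call in every alternative run, and the vessel to sinusoid value stayed between log2 4.20 and 4.98. The vein to vessel value was log2 -1.72 with intermediate nuclei counted as vessel.

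A small share of endothelial nuclei gave a large share of the Mecom UMIs. Vessel nuclei were 9.45% of endothelial nuclei in WT replicate 1 and gave 58.4% of the endothelial Mecom UMIs. They were 11.2% in WT replicate 2 and gave 70.5%, and 7.33% in CKO replicate 1 and gave 49.5%. In CKO replicate 2 the 4 vessel nuclei were 2.80% (exact 95% interval 0.767% to 7.01%, counting error only) and gave 33.3% of 33 UMIs. Sinusoid nuclei, 71.4% to 83.9% of endothelial nuclei, gave between 12.1% and 30.3%.

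**Figure D2:**
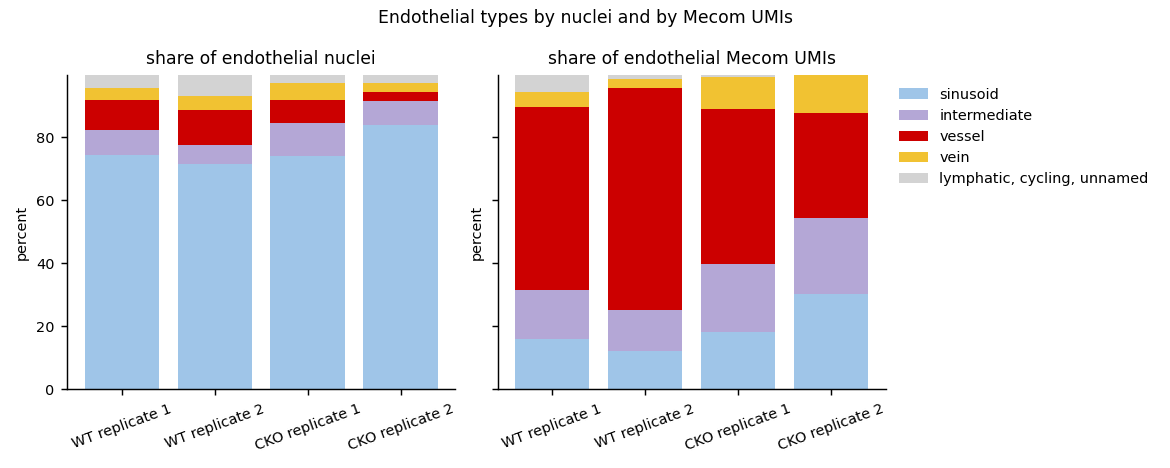
Share in percent (vertical axes) of endothelial nuclei (left) and of endothelial Mecom UMIs (right) that fell to each endothelial type in each of the 4 libraries. The vessel type, at most 11.2% of nuclei, gave 33.3% to 70.5% of Mecom UMIs.

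Meis1 was also higher in vessel nuclei, by a smaller margin. It was read there at 245 CPM in WT replicate 1, 216 CPM in WT replicate 2, 169 CPM in CKO replicate 1 and 140.3 CPM from 1 UMI in CKO replicate 2. Sinusoid nuclei had 139, 109, 78.4 and 65.1 CPM, so that all vessel values were above all sinusoid values, the last of them narrowly. The vessel to sinusoid difference was 1.83-fold (log2 0.88 ± 0.19 SE, edgeR adjusted p = 1.60e-04). Vein nuclei were the low type for Meis1, at 79.0 CPM (10 UMIs) in WT replicate 1 and 46.0 CPM (5 UMIs) in CKO replicate 1. It was 3.33-fold lower in vein than in vessel nuclei (log2 -1.74 ± 0.37 SE, edgeR adjusted p = 1.58e-04). The vein to sinusoid value, log2 -0.86 ± 0.37 SE, was not called (edgeR adjusted p = 0.176). The vessel to sinusoid call was lost without WT replicate 1 (edgeR adjusted p = 0.0502), without CKO replicate 1 (0.0532), with DESeq2 (0.0694) and after subtraction of free RNA (0.0968).

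Maf, a factor of the sinusoid programme, was lower in both other types. Sinusoid nuclei had 502 CPM in WT replicate 1, 363 CPM in WT replicate 2, 253 CPM in CKO replicate 1 and 293 CPM in CKO replicate 2. Vessel nuclei had 208, 151 and 111 CPM and 0 UMIs, each below the lowest sinusoid value. Vein nuclei had 221 CPM in WT replicate 1 and 147 CPM in CKO replicate 1, also below it. The difference was 2.43-fold for vessel (log2 -1.28 ± 0.20 SE, edgeR adjusted p = 2.57e-09) and 2.14-fold for vein (log2 -1.10 ± 0.24 SE, edgeR adjusted p = 1.72e-04). Free RNA could account for 58.4% of the Maf UMIs in vessel nuclei and 53.9% in vein nuclei, against 25.9% in sinusoids. With free RNA subtracted the vessel difference was log2 -2.39 and the vein difference log2 -1.96, and with intermediate nuclei counted as vessel the former was log2 -0.54, with each still called. The vein call was lost with DESeq2 (adjusted p = 0.0584), and vein and vessel nuclei did not differ by the test (log2 0.18 ± 0.30 SE, edgeR adjusted p = 0.916).

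Gata4 was less unequal, although it is known as a master factor of liver sinusoids. It was read in sinusoid nuclei at 467, 307, 403 and 312 CPM in WT replicate 1 and 2 and CKO replicate 1 and 2, and in vessel nuclei at 252, 238, 317 and 140.3 CPM, the last from 1 UMI. Within each library the sinusoid value was higher, but the ranges over libraries overlapped. The vessel to sinusoid difference was 1.59-fold (log2 -0.67 ± 0.17 SE, edgeR adjusted p = 0.00188). This call was lost with DESeq2 (adjusted p = 0.321), without WT replicate 1 (edgeR adjusted p = 0.713), after subtraction of free RNA (0.0745) and when intermediate nuclei were counted as vessel, where the value was log2 -0.05. Vein nuclei, at 529 CPM in WT replicate 1 and 358 CPM in CKO replicate 1, lay within the sinusoid range in CKO and above it in WT. The vein to sinusoid value was log2 -0.02 ± 0.19 SE (edgeR adjusted p = 0.983), and vein nuclei were higher than vessel nuclei by log2 0.65 ± 0.23 SE without passing the test (edgeR adjusted p = 0.0925). With doublets kept that value was log2 0.93 and passed (edgeR adjusted p = 0.00423), and with intermediate nuclei counted as vessel it was log2 0.07. Lymphatic nuclei were low, with 2 Gata4 UMIs in 32 nuclei.

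The ETS factors Ets1 and Erg went different ways between types. Ets1 was read in sinusoid nuclei at 506, 429.9, 428.9 and 316 CPM in the same order of libraries, in vessel nuclei at 406, 303, 221 and 140.3 CPM, and in vein nuclei at 111 CPM (14 UMIs) in WT replicate 1 and 175 CPM (19 UMIs) in CKO replicate 1. The tested vein values were below every sinusoid value, whereas vessel and sinusoid ranges overlapped. Ets1 was 3.49-fold lower in vein than in sinusoid nuclei (log2 -1.80 ± 0.25 SE, edgeR adjusted p = 4.24e-11) and 2.37-fold lower in vein than in vessel nuclei (log2 -1.25 ± 0.28 SE, edgeR adjusted p = 5.99e-04). The smaller vessel to sinusoid difference (log2 -0.56 ± 0.16 SE, edgeR adjusted p = 0.0102) was lost with DESeq2 (adjusted p = 0.450), without CKO replicate 1 (edgeR adjusted p = 0.344), after subtraction of free RNA (0.0769) and with intermediate nuclei counted as vessel. The vein to vessel call was lost with DESeq2 (adjusted p = 0.104), and the vein to sinusoid value was log2 -2.49 with free RNA subtracted, still called.

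Erg had 219, 155, 157 and 158 CPM in sinusoid nuclei, 174, 86.4, 95.8 and 140.3 CPM in vessel nuclei, and 387 CPM in WT replicate 1 and 165 CPM in CKO replicate 1 in vein nuclei. The highest value was the vein sum of WT replicate 1, and the ranges of all 3 types overlapped. Erg was 2.02-fold higher in vein than in vessel nuclei (log2 1.01 ± 0.28 SE, edgeR adjusted p = 0.0122). That call was lost with DESeq2 (adjusted p = 0.267), after subtraction of free RNA (0.201) and without the filter on low counts (0.0718). Neither the vessel to sinusoid value (log2 -0.53 ± 0.22 SE, edgeR adjusted p = 0.132) nor the vein to sinusoid value (log2 0.48 ± 0.23 SE, edgeR adjusted p = 0.263) was called. With doublets kept the latter was log2 0.64 and passed (edgeR adjusted p = 0.0440).

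In all, 3 of the 6 tested genes passed the vein to sinusoid comparison, Mecom higher and Ets1 and Maf lower, where 6.83% of 4976 genes were called, 3.62% as higher and 3.22% as lower. In the vein to vessel comparison 4 of 6 passed, Erg higher and Mecom, Meis1 and Ets1 lower, where 3.92% of genes were called, 2.01% as higher and 1.91% as lower. Each vein comparison rests on 2 libraries, 1 per genotype.

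**Figure D3:**
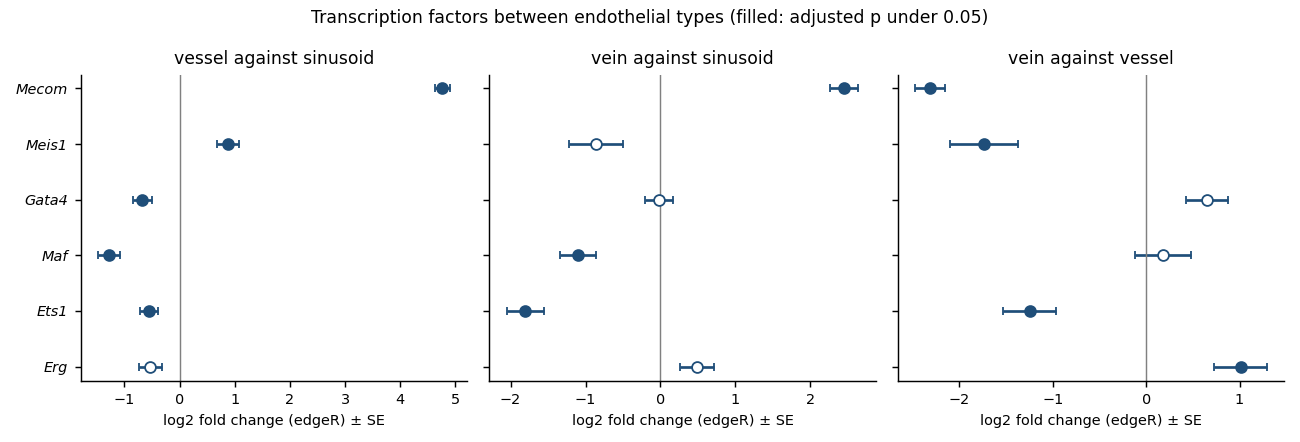
Log2 fold change between endothelial types (horizontal axes, point with bars of 1 SE, from edgeR) for 6 transcription factors (vertical axis); filled points have an adjusted p under 0.05. Mecom stands at 4.76 for vessel against sinusoid nuclei, while the other genes stay between -1.80 and 1.01 in all panels.

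The SOX F factors were sparse. Sox17 had 78 UMIs in sinusoid, 18 in vessel and 5 in vein nuclei over all libraries. Its level in vessel nuclei was 51.1 CPM (15 UMIs) in WT replicate 1, 21.6 CPM (1 UMI) in WT replicate 2 and 14.7 CPM (2 UMIs) in CKO replicate 1, and in sinusoid nuclei 23.1, 21.1, 13.6 and 18.6 CPM. The 4 vessel nuclei of CKO replicate 2 held 0 Sox17 UMIs. The vessel value was the higher one in the 3 libraries with at least 20 vessel nuclei, by a wide margin in WT replicate 1 only, and Sox17 did not pass the count filter of the type comparison. In the named classes outside endothelium it had at most 19 UMIs in a library, in macrophages of WT replicate 1. Sox18 had 10 UMIs in all 2455 endothelial nuclei and 64 in all barcodes, and free RNA could account for 37.5% of the endothelial ones. Its distribution over types was not detectable at this depth.

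The factors also varied among the sub-clusters named sinusoid in a single clustering. Of the genes given here, Mecom had the widest relative range. Over 8 sinusoid sub-clusters the level of Gata4 ran from 352 to 544 CPM, of Maf from 318 to 566 CPM, of Ets1 from 343 to 597 CPM and of Erg from 152 to 241 CPM. Mecom ran from 64.0 to 536 CPM with a median of 93.9 CPM, and Meis1 from 76.8 to 188 CPM. The same sub-cluster of 173 nuclei, led by Efnb1 and Hkdc1, was highest for Mecom, Meis1 and Gata4. Its Stab2 level was 1659 CPM, below the sinusoid value of 2547 CPM, and Efnb2 and Slc45a4 of the vessel markers were raised in it. Gpr182 of the sinusoid markers, Thbd of the vein markers and Il7r of the T and NK lymphocyte markers were raised too, whereas Vwf and Adgrg6 were not. These sub-clusters were formed from the same nuclei, so the ranges are a description. The sinusoid type was named over 50 clusterings, so some nuclei of these sub-clusters belong to other types. The sub-cluster of 173 nuclei held 211 Mecom UMIs, against 420 in the whole sinusoid type. Its values are therefore not a range within that type.

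A list of 36 further endothelial transcription factors gives context. Of them 20 were tested between vessel and sinusoid nuclei; 5 were higher and 2 lower, with a median of log2 0.29 against -0.02 over all genes. The 4 higher ones with the smallest p included Fli1, an ETS factor of endothelial and blood cells. It was read in vessel nuclei at 1183 CPM in WT replicate 1, 1081 CPM in WT replicate 2 and 663 CPM in CKO replicate 1, against 450.2, 398 and 384 CPM in their sinusoid nuclei. The Fli1 difference was called (log2 1.17 ± 0.13 SE, edgeR adjusted p = 8.03e-17). Sox13, a SOX D factor, was higher by log2 2.72 ± 0.39 SE (edgeR adjusted p = 1.02e-10), with 153, 86.4 and 73.7 CPM in vessel and 21.7, 14.1 and 11.3 CPM in sinusoid nuclei. Foxp1, a forkhead factor, was higher by log2 0.84 ± 0.13 SE and Meis2, the paralog of Meis1, by log2 0.67 ± 0.11 SE (edgeR adjusted p = 6.19e-09 and 5.33e-08). The fifth was the ETS factor Elk3, which is named after its values were seen. Lower in vessel nuclei were Zeb1, a zinc finger repressor (log2 -0.79 ± 0.14 SE), and Tcf4, an E protein (log2 -0.61 ± 0.14 SE), at edgeR adjusted p = 8.82e-07 and 2.83e-04.

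Between vein and sinusoid nuclei the 20 tested had a median of log2 0.16 against -0.04 over all genes. The ETS factor Etv6 (log2 0.71 ± 0.18 SE) and Foxp1 (0.60 ± 0.16 SE) were higher, and Zeb1 (-1.03 ± 0.18 SE) was lower, at edgeR adjusted p of 0.00244, 0.00399 and 5.72e-07. Between vein and vessel nuclei 2 of 20 were lower, Fli1 (log2 -1.35 ± 0.19 SE, edgeR adjusted p = 6.31e-10) and Sox13 (log2 -1.99 ± 0.62 SE, edgeR adjusted p = 0.0396). Of 9 genes of continuous, non-fenestrated vessels 4 were tested. Hspg2 (perlecan, log2 -1.75 ± 0.30 SE) and Col4a2, a basement membrane collagen (log2 -1.05 ± 0.25 SE), were lower in vessel than in sinusoid nuclei, and Col4a1 was lower in vein than in sinusoid nuclei (log2 -1.49 ± 0.36 SE), with edgeR adjusted p of 2.36e-07, 5.85e-04 and 0.00112. Emcn, an endothelial sialomucin, was not called in either comparison, and the rest of the list had too few counts to be tested.

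The genotype comparison asked whether loss of Rbpj in hepatic progenitor cells went with a change of these factors in endothelium. No factor passed edgeR's test at an adjusted p of 0.05 in all endothelial nuclei, in sinusoid nuclei or in vessel nuclei, and DESeq2 called none either. At an unadjusted p under 0.05 stood Mecom in all endothelial nuclei and no factor in the other sums. In all endothelial nuclei 0 of 9714 genes were called (0%), with 456 at an unadjusted p under 0.05 and 1 call by DESeq2. In sinusoid nuclei 0 of 8607 genes were called (0%), with 337 at an unadjusted p under 0.05 and 1 call by DESeq2. In vessel nuclei 2 of 1775 genes (0.113%) were called and 0 by DESeq2. They were the collagen gene Col8a1, lower in CKO, and the globin gene Hba-a2, higher in CKO, both named after their values were seen. In CPM, CKO values nonetheless lay below WT values for several factors without overlap, and so did those of many other genes.

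Mecom had 565 CPM in WT replicate 1 and 514 CPM in WT replicate 2 over all endothelial nuclei, against 359.6 CPM in CKO replicate 1 and 128 CPM in CKO replicate 2. Both CKO values were below both WT values. The fitted value was log2 -0.93 ± 0.38 SE (edgeR adjusted p = 0.9998, unadjusted 0.0357). Without CKO replicate 1 it was log2 -1.76 and passed (edgeR adjusted p = 0.00268), with CKO replicate 2, of 143 endothelial nuclei, as the lone CKO library and assumed to vary like the WT ones. Within vessel nuclei the value was log2 -0.74 ± 0.63 SE (edgeR adjusted p = 0.795) and within sinusoid nuclei log2 -0.34 ± 0.32 SE (edgeR adjusted p = 0.9998). The genotype effect in vessel nuclei minus that in sinusoid nuclei was log2 -0.34 ± 0.72 SE, with 0 of 5362 genes called and 125 at an unadjusted p under 0.05 (edgeR adjusted p = 0.9998 for Mecom). The share of vessel nuclei, given above for each library, was lower in both CKO libraries than in both WT libraries and moves with the summed level of all endothelial nuclei; its part in that level was not tested.

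Meis1 had 152 and 114 CPM in WT endothelial nuclei and 88.7 and 77.5 CPM in CKO, again without overlap (log2 -0.47 ± 0.25 SE, edgeR adjusted p = 0.9998, unadjusted 0.0954). In sinusoid nuclei alone it had 139 and 109 CPM in WT and 78.4 and 65.1 CPM in CKO (log2 -0.59 ± 0.29 SE, edgeR adjusted p = 0.9998). Maf had 448 and 315 CPM in WT endothelial nuclei and 244 and 275 CPM in CKO (log2 -0.34 ± 0.26 SE, edgeR adjusted p = 0.9998). Ets1 had 484 and 399.7 CPM in WT and 387 and 302 CPM in CKO (log2 -0.15 ± 0.25 SE, edgeR adjusted p = 0.9998). The WT and CKO ranges of these 3 genes did not overlap on this scale, with the narrowest gap for Ets1. They still did not overlap when free RNA was subtracted and values stayed relative to all UMIs of the class. When the rest was also scaled to itself, they overlapped for Meis1 and Maf and turned for Ets1, as given below. Sox17 had 25.7 and 22.3 CPM in WT and 14.9 and 15.5 CPM in CKO, from 116 UMIs in all (log2 -0.49 ± 0.42 SE, edgeR adjusted p = 0.9998). Gata4 (449 and 343 CPM in WT, 396 and 287 CPM in CKO) and Erg (224 and 141 CPM in WT, 153 and 151 CPM in CKO) overlapped between genotypes, with fitted values of log2 0.00 ± 0.25 SE and -0.06 ± 0.26 SE.

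Counted over the 7 genes other than Sox18, both CKO libraries were lower than both WT libraries for 5 in all endothelial nuclei (Mecom, Ets1, Sox17, Maf and Meis1) and for 4 in sinusoid nuclei, and higher for 0 in either. Of all genes tested 27.6% were lower in this way and 6.76% higher in all endothelial nuclei, and 25.6% and 6.9% in sinusoid nuclei. In vessel nuclei 5 of 7 were lower and 0 higher, against 23.7% and 13.4% of genes, with the CKO replicate 2 values from at most 11 UMIs each. Nuclei named vessel in at least 70% of clusterings were 74 of 120 and 12 of 25 in WT. In CKO they were 9 of 60 and 1 of 4. Their Mecom level was 4020.4 and 3535 CPM in WT and 2797 and 2407 CPM in CKO. Mecom in the other vessel nuclei was 2137 and 2809 CPM in WT and 2299 and 1280 CPM in CKO, where the ranges overlapped. The part of this makeup in the vessel values was not tested. The share of free RNA was higher in CKO, with 73.0% and 77.1% of sinusoid UMIs in WT and 81.1% and 86.3% in CKO. The sinusoid markers had lower values in CKO, Stab2 from 3099 and 2410.1 CPM in WT to 1813 and 1716 CPM in CKO and Ptprb from 1754 and 1730.1 CPM to 1012 and 1121 CPM. The summed level of the 8 hepatocyte markers in endothelial nuclei, all 8 of them detected in every library, was 21724 and 20549 CPM in WT and 35229.5 and 25643 CPM in CKO. In hepatocyte nuclei the same sum was 23216 and 20820 CPM in WT and 23917 and 23559 CPM in CKO. It was thus close to the endothelial sum in WT and below it in CKO. When the UMIs expected from free RNA were subtracted and the rest was scaled to itself, vessel nuclei had 10089.9, 12357, 15290.1 and 8821 Mecom CPM in WT replicate 1 and 2 and CKO replicate 1 and 2, so the WT and CKO ranges then overlapped. In all endothelial nuclei the same scale gave Mecom 1879 and 2063 CPM in WT and 1755 and 876 CPM in CKO, lower in both CKO libraries. Ets1 was higher there in both, with 1505 and 1561 CPM in WT and 1749 and 2058 CPM in CKO. Maf had 1159.8 and 1105 CPM in WT and 757 and 1622 CPM in CKO, Meis1 437 and 409 against 353 and 452 CPM, and Sox17 79.7 and 84.2 against 63.6 and 107 CPM, all with overlap. Gata4, whose ranges overlapped before the subtraction, was then higher in both CKO libraries, at 1893 and 1969 CPM against 1455 and 1352 CPM in WT, and so was Erg, at 743 and 1057 CPM against 734 and 563 CPM. The divisor of this scale is the remaining share of UMIs, smaller in both CKO libraries, so it raises CKO values of all genes more. How many of all genes were lower or higher in CKO on this scale was not counted.

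**Figure D4:**
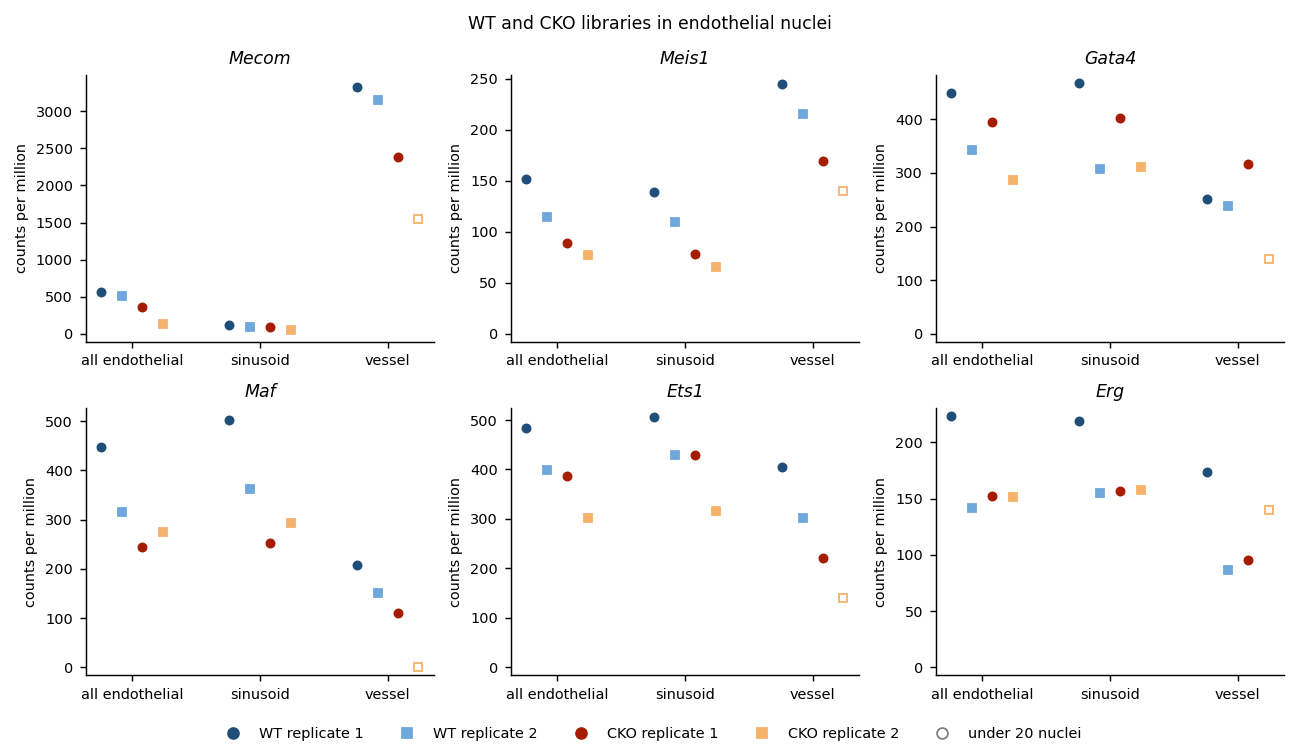
Level in CPM (vertical axes) of 6 transcription factors in all endothelial, sinusoid and vessel nuclei (horizontal axis) of the 2 WT and 2 CKO libraries; each point is a library and open points are sums of under 20 nuclei. CKO points lie below WT points for Meis1, Maf and Ets1 in each of the panels' groups, narrowly for Ets1 in sinusoid nuclei. The same holds for Mecom except in sinusoid nuclei, where 90.4 CPM in CKO replicate 1 is above 88.1 CPM in WT replicate 2. Gata4 and Erg overlap in each group.

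In other classes the same comparison gave no call among the 8 either; over all genes the calls made up 0.0194% in cholangiocytes and 0% in hepatocytes, macrophages and mesenchymal nuclei, where 220, 647 and 612 genes had an unadjusted p under 0.05 and DESeq2 called 2, 3 and 1. Of the 7 genes, both CKO libraries were lower than both WT libraries for 1 in hepatocytes, 0 in cholangiocytes, 1 in macrophages and 1 in mesenchymal nuclei, against 16.7%, 21.3%, 26.5% and 26.8% of all genes tested there. They were higher for 1 in each class, against 7.6%, 8.94%, 6.38% and 9.64% of all genes. Maf in macrophages had 328 and 249 CPM in WT and 202 and 165 CPM in CKO, without overlap (log2 -0.45 ± 0.21 SE, edgeR adjusted p = 0.966). Free RNA gave 66.1% and 72.9% of macrophage UMIs in WT and 76.0% and 79.1% in CKO, and its part in this difference was not tested. In mesenchymal nuclei Meis1 had 133 and 136 CPM in WT and 87.3 and 82.5 CPM in CKO (log2 -0.50 ± 0.27 SE, edgeR adjusted p = 0.793), while Ets1 had higher values in CKO (log2 0.39 ± 0.26 SE, edgeR adjusted p = 0.860). In hepatocytes Gata4 had 48.8 and 48.9 CPM in WT and 65.1 and 53.2 CPM in CKO (log2 0.35 ± 0.19 SE, edgeR adjusted p = 0.99997). None of the further endothelial factors or continuous vessel genes was called between genotypes by edgeR. Over the 29 further factors tested in all endothelial nuclei the median was log2 -0.18 against 0.00 over all genes, and over the 8 vessel genes tested it was -0.65. The smallest unadjusted p of the latter belonged to Emcn (log2 -0.97 ± 0.27 SE, edgeR adjusted p = 0.932, unadjusted 0.00527).

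Genes with the most similar pattern were sought over the 36 sums of at least 20 nuclei by class and library, among 12685 genes, as a description that shares libraries and depth. Erg followed Plekhg1, the angiopoietin receptor gene Tek and the adhesion receptor gene Adgrl4 most closely (Pearson r 0.94, 0.94 and 0.94). Mecom was most like the junction gene Jam2, Cyyr1 and the BMP receptor gene Bmpr2 (0.89, 0.88 and 0.87). Gata4 was most like the VEGF receptor gene Flt1, Il6st and Msrb3 (0.88, 0.84 and 0.84), and Maf like the scavenger receptor gene Stab1, Sash1 and Dysf (0.87, 0.86 and 0.83). Ets1 was most like Rnf144a, Prex2 and Ldb2 (0.85, 0.84 and 0.82) and Meis1 like Syne1, the lymphatic growth factor gene Vegfc and Pakap (0.86, 0.83 and 0.81). Flt1, Tek, Stab1 and Vegfc were among the naming markers. Sox17 and Sox18 had fewer than the 200 UMIs needed.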

How the data were processed

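Nuclei of fresh-frozen livers were profiled with 10x Genomics 3′ v3.1 chemistry; per the submitters' processing notes Cell Ranger 5.0.1 and mm10 were used. The files deposited by the authors hold raw UMI counts per gene and barcode, without normalization. Barcodes with at least 500 detected genes were kept and the highest-scoring simulated doublets removed (0.8% per 1000 barcodes). Clusters (Leiden, scanpy 1.11.5) were named from fixed markers raised 1.5 times over free RNA, whose profile for naming came from the lowest 10% of barcodes by UMI number. For the shares and the subtraction of free RNA, the profile was that of the unnamed nuclei of each library. Its scale came from secreted hepatocyte transcripts, or from mitochondrial transcripts in hepatocytes. Unnamed nuclei had median UMIs of 1606 to 1956 per library, against 1720 to 2222.5 in endothelial nuclei, so their profile may not be free RNA alone. Of the endothelial clusters, 172 nuclei with macrophage markers were set aside. Endothelial types were named over 50 clusterings, and a nucleus counted as vessel if at least 20% of them named it so; this rule was chosen after seeing the data, on nuclei numbers, not on the 8 genes. Members and lists were chosen with earlier results of these data known.

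Counts were summed by type or class and library and tested in R 4.3.3 with the quasi-likelihood test of edgeR 4.0.16 after filterByExpr and TMM scaling, with Benjamini-Hochberg adjustment over all genes. The library was a block between types; genotype fits had 4 sums and no block. The fits were tested on simulated data. CPM intervals and floors cover counting error only. All 8 members are named, with the 3 genes most alike to each and up to 4 genes per direction of each list by smallest p; the results on 1 listed gene are not reported here. Alternatives were DESeq2 1.42.0, other size factors, no filter, other resolutions and doublet settings, subtraction of free RNA, and leaving out libraries.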

Additional observations from a re-analysis of the deposited data

Results flagged for a closer look

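In CPM, Ets1 differed between genotypes in opposite directions in different classes. In all endothelial nuclei both CKO libraries were below both WT libraries, and the log2 ratio of summed CPM (CKO over WT) was -0.358. In sinusoid nuclei it was -0.329, with the nearest WT and CKO values at 429.9 and 428.9 CPM. In mesenchymal nuclei both CKO libraries were above both WT libraries, and the log2 ratio was 0.227. The difference between these classes was not tested, and edgeR called Ets1 in none of them. Subtraction of free RNA alone, relative to all UMIs of the class, left the opposite directions. Endothelial nuclei had 430 and 384 CPM in WT and 334 and 286 CPM in CKO. Mesenchymal nuclei had 262 and 270 CPM in WT and 307 and 323 CPM in CKO. The opposite directions were not seen once the rest was also scaled to itself, a scale that raises CKO values of all genes more than WT values. Ets1 then had 1505 and 1561 CPM in WT and 1749 and 2058 CPM in CKO endothelial nuclei, 1669 and 1803 against 1985 and 2192 CPM in sinusoid nuclei, and 586 and 699.7 against 914 and 1157 CPM in mesenchymal nuclei, higher in both CKO libraries in each. The fitted edgeR value in all endothelial nuclei was then log2 0.13.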

How the results depend on the processing

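Over the 43 gene values and their 478 alternative values, 434 kept direction and side of the threshold, 17 fell short of it, 3 gained it and 24 changed sign; alternatives added after seeing the data were intermediate nuclei counted as vessel, subtraction of free RNA and sums of at least 10 nuclei. Among the 8 genes, the calls for vessel against sinusoid went from 5 to 2 with DESeq2, 3 with intermediate nuclei counted as vessel and 2 with free RNA subtracted, and ranged from 3 to 5 leaving out a library; vein against vessel went from 4 to 2 with DESeq2. The CKO count in all endothelial nuclei, 0, ranged from 0 to 1 leaving out a library. Over all genes, DESeq2 gave 194 calls for vessel against sinusoid, 157 for vein against sinusoid and 90 for vein against vessel, and free RNA subtraction, with fewer genes tested, 217, 175 and 79, against 428, 340 and 195. Leaving out a library gave 181 to 426 for vessel against sinusoid. For CKO against WT, DESeq2 called 1 gene in all endothelial, 1 in sinusoid, 0 in vessel, 0 in cholangiocyte, 2 in hepatocyte, 3 in macrophage and 1 in mesenchymal nuclei. Without the filter the counts were 47, 26, 0, 59, 83 and 78 in endothelial, sinusoid, vessel, cholangiocyte, macrophage and mesenchymal nuclei. Leaving out a library gave 0 to 175, 0 to 200, 0 to 55, 3 to 214, 0 to 262, 0 to 462 and 0 to 353 in endothelial, sinusoid, vessel, cholangiocyte, hepatocyte, macrophage and mesenchymal nuclei, and 0 to 19 for the difference between vessel and sinusoid nuclei. Vessel nuclei gave 6 at resolution 2, 0 with intermediate nuclei counted and 0 with free RNA subtracted, the difference 1 with free RNA subtracted, and cholangiocytes 42 with doublets kept, against 2; the cause of these changes was not tested. Same-numbered libraries correlated by 0.0864 to 0.278 in their deviations, and the numbers share only a name; with the replicate block the counts were 2 in endothelial, 2 in sinusoid, 12 in cholangiocyte and 25 in mesenchymal nuclei, and Gata4 in all endothelial nuclei was log2 -0.0044. Signs changed for values that were not called, and not all of these lay near 0. For CKO against WT in vessel nuclei the main values were log2 0.32 ± 0.48 SE for Gata4 and -0.41 ± 0.51 SE for Meis1. Gata4 vein against sinusoid was 0.033 with DESeq2, 0.032 with other size factors and 0.075 with doublets kept. Maf vein against vessel was -0.55 with intermediate nuclei as vessel. Gata4 in CKO against WT was -0.013 without the filter, -0.074 with doublets kept and -0.0061 with the members kept for clustering in all endothelial nuclei, -0.035 with doublets kept in sinusoid nuclei, and -0.42 with intermediate nuclei in vessel nuclei. Leaving out a library, Gata4 ranged from -0.14 to 0.12 in endothelial, -0.030 to 0.23 in sinusoid and -1.32 to 0.53 in vessel nuclei, and Erg from -0.19 to 0.13 in endothelial and -0.16 to 0.042 in sinusoid nuclei. With free RNA subtracted, Erg was 0.21 and Ets1 0.13 in all endothelial nuclei, Erg 0.18 and Ets1 0.13 in sinusoid nuclei, and Meis1 0.084 in vessel nuclei. Not fitted were the vessel comparisons with the members kept for clustering, where vessel nuclei passed 20 in 1 library, and the vein comparisons without WT replicate 1 or CKO replicate 1. Depth limits Sox17, Sox18, the vein type and the 4 vessel nuclei of CKO replicate 2.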

Other observations

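Vessel nuclei were not uniform. The 96 nuclei named vessel in at least 70% of clusterings had 3846 Mecom CPM pooled over libraries (95% counting interval 3597 to 4107) and the other 113 had 2256 CPM (2074 to 2450.3). Of the former, 74 came from WT replicate 1, 12 from WT replicate 2 and 9 from CKO replicate 1. The nuclei of the former set had the higher Mecom value in each library, with 4020.4 against 2137 CPM in WT replicate 1, 3535 against 2809 CPM in WT replicate 2 and 2797 against 2299 CPM in CKO replicate 1; CKO replicate 2 had 1 such nucleus. Bmx is a kinase of arterial endothelium and was one of the vessel naming markers. It had 296 against 46.5, 227 against 41.3 and 180.4 against 79.3 CPM in the same libraries. Gja5, another of those markers, had 194 against 130, 136 against 165 and 135 against 123 CPM, so it was lower in WT replicate 2. Gata4 had 183 against 372 CPM in WT replicate 1 but 227 against 248 CPM and 316 against 317 CPM in the other two. The nuclei were chosen on clusterings of the same counts, so these values are a description.

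A sub-cluster of 18 endothelial nuclei that no marker list named was led by Ephb1, Nav3 and the axon guidance receptor gene Unc5b. It had 1845 Mecom CPM (87 UMIs) with 21.2 Gata4 CPM (1 UMI), a combination unlike both sinusoid and vein nuclei in value. Efnb2, Slc45a4 and Vegfc of the vessel markers were raised in it over the other endothelial nuclei, whereas Vwf and Adgrg6 were not. Cdh13 of the vein markers, Reln of the mesenchymal markers and Ebf1 of the B lymphocyte markers were raised as well. Its Stab2 level was 318 CPM, against 303 CPM in the vessel type. The 32 nuclei named lymphatic had 22.9 CPM of each of Gata4 and Mecom and 229 Erg CPM. In the 46 cycling endothelial nuclei Gata4 reached 559 CPM and Erg 339 CPM, and Mecom 128 CPM. The 14 dendritic nuclei of WT replicate 2 held 11 Mecom UMIs (403 CPM), against 27.6 CPM in the 245 dendritic nuclei of WT replicate 1.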
